A study of Mus musculus with 48 samples.

Results

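The pancreatic digestive enzyme genes Cela1, Cela2a, Cela3b, Ctrb1, Ctrl, Cpa1, Cpb1, Pnlip and Prss2 were followed across sorted stromal cells of mouse lymph nodes. They were chosen by symbol, with their array values already known, so their levels are a description without a test. Of these 9 genes, 8 were named by at least 1 probe, out of 19057 genes in all, and Pnlip (pancreatic lipase) was named by none and was not analysed here. For each gene the brightest probe was used.

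The study asked how gene expression differed among stromal cell types and between mice with and without lymphoma. Blood endothelial cells (BECs) and lymphatic endothelial cells (LECs), fibroblastic reticular cells (FRCs) and cells negative for both sorting markers (double-negative, DN) were sorted from cervical, axillary, brachial and inguinal lymph nodes and profiled on Illumina bead arrays. Each cell type came from naive wild-type controls and from animals that had received Eμ-Myc lymphoma B cells by intravenous injection, whose tumor load was 4% to 10% of lymph node lymphocytes. These 8 groups each held 3 biological replicates with 2 array strips, giving 24 replicates and 48 strips.

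All groups had been digested with Dispase II, Collagenase P and DNase1, depleted of CD45+ cells and sorted as CD45- Ter119- live cells. BECs were CD31+ gp38-, LECs CD31+ gp38+, FRCs CD31- gp38+ and DN cells negative for both, so that the DN group is defined by what it lacks and can hold several cell types. RNA of 4 to 6 sorts was pooled for each array, and a single sort cannot be traced in a replicate. The labels give no age, sex or strain beyond wild type. A total of 863780 to 1044181 beads was read per strip, and a probe code was carried by a median of 18 to 22 beads. Each cell type lay on a slide of its own, so cell type and slide cannot be told apart. The naive and the tumor replicates of a cell type took different places on its slide, and these places cannot be told apart from the state either. The 7 LEC markers were all above background in all 6 LEC replicates, with Lyve1 (a hyaluronan receptor) at log2 values of 14.09 to 14.42 and Prox1 (the lymphatic fate transcription factor) at 12.61 to 13.37. All 7 were above background in every BEC replicate too, but there Lyve1 read 9.49 to 11.53 and Prox1 6.09 to 9.32.

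The exocrine pancreas makes digestive enzymes in acinar cells, stores most of them as inactive precursors in zymogen granules and releases them into ducts that lead to the gut. Chymotrypsin-like elastases (Cela1, Cela2a, Cela3b), chymotrypsins (Ctrb1, Ctrl) and trypsin (Prss2) are serine proteases that cut within proteins, and the carboxypeptidases Cpa1 and Cpb1 remove amino acids from the C-terminal end. In acinar cells their transcription is driven by the PTF1 complex, which pairs the E-box-binding factor Ptf1a with Rbpjl, a relative of the Notch effector RBPJ. Some stromal cells of lymph nodes, including LECs, are known to transcribe genes of other tissues as self-antigens.

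The promoters of 1 gene of each enzyme class are shown: an elastase, a chymotrypsin, a carboxypeptidase and a trypsin. These are the 250 bases before the annotated start from RefSeq (GRCm38.p6), written 5′ to 3′ on the gene's own strand, with the capitals marking matches to the TATA box (TATAAA) and to the RBPJ core (TGGGAA, or its reverse complement). The Cela2a window is chr4:141826006-141826255 on the minus strand, the Ctrb1 window chr8:111691011-111691260 on the minus strand, the Cpa1 window chr6:30638968-30639217 on the plus strand and the Prss2 window chr6:41521526-41521775 on the plus strand.
Cela2a: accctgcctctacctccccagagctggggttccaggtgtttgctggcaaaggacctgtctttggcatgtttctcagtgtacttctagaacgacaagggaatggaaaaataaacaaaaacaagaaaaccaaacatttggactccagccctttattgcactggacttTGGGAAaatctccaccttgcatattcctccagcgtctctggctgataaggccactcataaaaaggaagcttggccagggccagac
Ctrb1: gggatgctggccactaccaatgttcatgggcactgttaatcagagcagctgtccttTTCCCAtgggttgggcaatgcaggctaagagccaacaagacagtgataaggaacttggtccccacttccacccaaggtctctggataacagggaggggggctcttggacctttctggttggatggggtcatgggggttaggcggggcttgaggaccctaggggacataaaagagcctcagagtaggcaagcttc
Cpa1: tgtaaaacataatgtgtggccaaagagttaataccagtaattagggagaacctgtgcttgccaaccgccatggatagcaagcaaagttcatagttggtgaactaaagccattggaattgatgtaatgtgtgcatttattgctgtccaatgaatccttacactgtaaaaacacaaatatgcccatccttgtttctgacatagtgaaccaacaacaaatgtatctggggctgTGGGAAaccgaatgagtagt
Prss2: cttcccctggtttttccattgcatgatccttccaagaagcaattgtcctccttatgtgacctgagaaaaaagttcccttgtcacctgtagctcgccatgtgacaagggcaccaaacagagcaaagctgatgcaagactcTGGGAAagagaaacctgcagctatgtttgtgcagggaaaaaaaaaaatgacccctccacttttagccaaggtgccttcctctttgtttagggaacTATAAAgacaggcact

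All 9 genes had a promoter entry in the RefSeq table. The RBPJ core, searched on both strands, was in 6 of these 9 windows and in 21.6% of all 32851 windows of the same length. Each window shown above holds a match to it, whereas those of Cela1, Cela3b and Cpb1, not shown, hold none. The TATA box was in 3 of the 9 windows, against 12.4% of all windows, and the E-box CANNTG, which reads the same on both strands, in 8 of the 9, against 66.2%. These matches describe the letters in the windows and are no measure of binding.

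The enzyme genes were bright in 2 replicates of 24. All 8 had their highest log2 value in LEC tumor replicate 1 and their next highest in LEC tumor replicate 2, whereas LEC tumor replicate 3 held 6 of the 8 below the background level of 5.57. That level lies 3 robust SDs above the mode of all values. In the other 22 replicates between 1 and 4 of the 8 genes were above background, and the most were in LEC naive replicate 1.

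**Figure D1:**
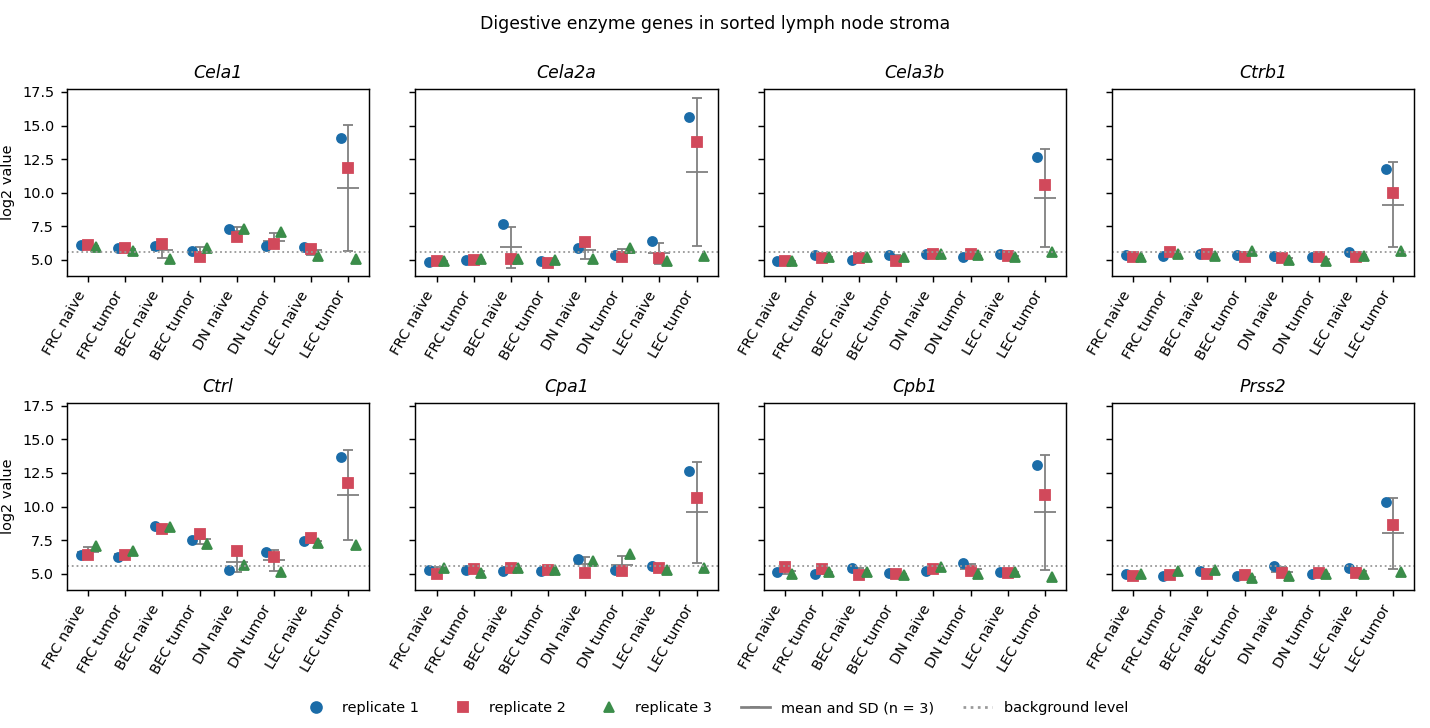
Log2 value (y axis, quantile normalized, strips averaged) of the 8 measured digestive enzyme genes in each replicate (points), by cell type and state (x axis), with the group mean and SD of 3 replicates and the background level of 5.57 (dotted). LEC tumor replicates 1 and 2 stand above all other replicates in every panel, and only Ctrl and Cela1 are above background in most of the others (20 and 18 of 22).

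Among the elastases, Cela2a had log2 values of 15.63, 13.79 and 5.30 in LEC tumor replicates 1, 2 and 3, and of 6.38, 5.14 and 4.94 in LEC naive replicates 1, 2 and 3. The LEC tumor mean was 11.57 and the LEC naive mean 5.49, a difference of 6.09 with an SE of 1.53. The groups did not separate, since LEC tumor replicate 3 lay below LEC naive replicate 1. Cela1 followed with 14.09, 11.85 and 5.08 in LEC tumor replicates 1 to 3, and with 5.99, 5.82 and 5.32 in the naive ones. Here LEC tumor replicate 3 was the lowest of the 6 LEC values. Cela3b read 12.63, 10.60 and 5.55 in LEC tumor replicates and 5.42, 5.30 and 5.23 in LEC naive replicates. All 3 naive replicates and tumor replicate 3 were below background for Cela3b, so the mean of the tumor replicates was at least 16.3-fold that of the naive ones.

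Among the chymotrypsins, Ctrb1 had log2 values of 11.74, 9.97 and 5.66 in LEC tumor replicates 1, 2 and 3, against 5.56, 5.23 and 5.27 in LEC naive replicates. The tumor mean was at least 11.7-fold the naive mean, which was below background in each replicate. Ctrl, chymotrypsin-like protease, read 13.68, 11.75 and 7.14 in the tumor replicates and 7.43, 7.63 and 7.28 in the naive ones. It was above background in all 6 LEC replicates, and tumor replicate 3 was below each naive replicate.

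Of the carboxypeptidases, Cpa1 had log2 values of 12.65, 10.64 and 5.41 in LEC tumor replicates 1, 2 and 3, and lay between 5.26 and 5.59 in the naive replicates. Cpb1 had 13.07, 10.83 and 4.79 against 5.16, 5.02 and 5.09. Its lowest value over all 24 replicates was that in LEC tumor replicate 3, and the tumor mean was at least 15.9-fold the naive mean. Prss2, an anionic trypsinogen, read 10.31, 8.61 and 5.09 in the tumor replicates and 5.45, 5.06 and 4.99 in the naive ones. This gave a tumor mean at least 5.39-fold the naive mean. Prss2 belongs to a cluster of closely similar trypsinogen genes on chromosome 6, so its probe may read transcripts of the others.

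The difference between tumor and naive LECs thus rested on 2 replicates of 3. Over the 8 genes the difference in means ran from 2.83 (Prss2) to 6.09 (Cela2a) on the log2 scale with a median of 4.22, while the median of all 19057 genes was 0.00318. With both of these replicates left out, an alternative chosen after seeing the data, the median over the 8 genes was -0.04. Without LEC tumor replicate 3 it was 6.27.

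Replicate 1 exceeded replicate 2 by a similar step for each gene. The difference between LEC tumor replicates 1 and 2 ran from 1.70 (Prss2) to 2.25 (Cpb1) on the log2 scale with a median of 1.98, which is a ratio of 3.24 to 4.75. Relative to LEC tumor replicate 3, with values below background set to the background level, replicate 1 was higher by 4.74 (Prss2) to 10.06 (Cela2a) and replicate 2 by 3.04 (Prss2) to 8.21 (Cela2a). For Cela2a this is at least 1064-fold in replicate 1 and at least 297-fold in replicate 2.

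**Figure D2:**
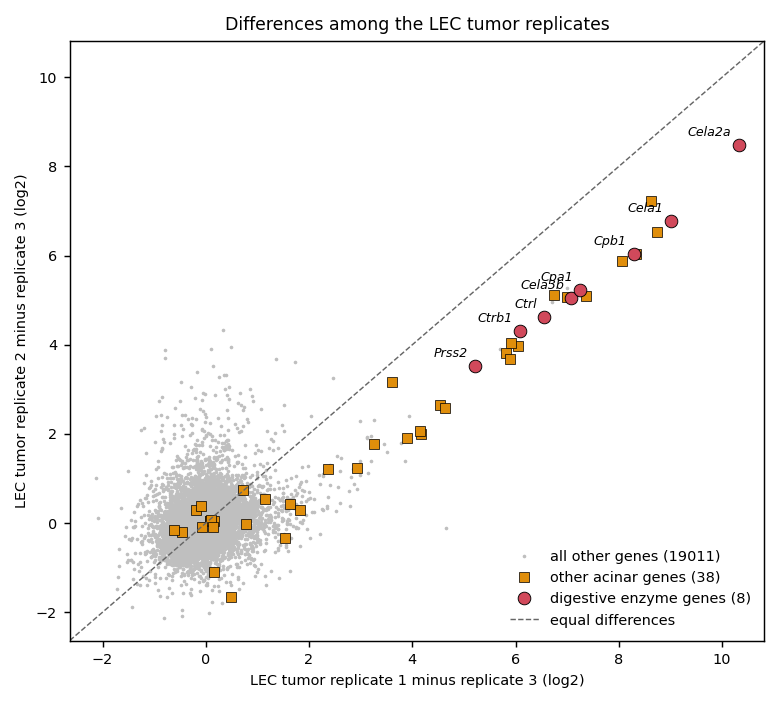
Log2 difference from LEC tumor replicate 3 in LEC tumor replicate 1 (x axis) and replicate 2 (y axis) for 19057 genes; red circles are the 8 digestive enzyme genes, orange squares the 38 other acinar genes, grey points all other genes, and the dashed line marks equal differences. The enzyme genes lie on a band to the right of the line, between Prss2 and Cela2a, at 1.70 to 2.25 more in replicate 1 than in replicate 2.

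Both strips of a replicate gave these levels. In LEC tumor replicates 1 and 2 the 2 strips differed by a median of 0.157 and by at most 0.342 on the log2 scale over the 16 values of the 8 genes. Single beads showed the same separation: for 7 of the 8 genes every bead in LEC tumor replicates 1 and 2 was brighter than every bead in replicate 3. For Cela2a the dimmest of 48 beads in replicate 1 had an intensity of 18719 and the dimmest of 42 beads in replicate 2 one of 5524, whereas the brightest of 38 beads in replicate 3 reached 323. The exception was Prss2, whose dimmest bead in replicate 2, at 201, was below the brightest in replicate 3, at 212.

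**Figure D3:**
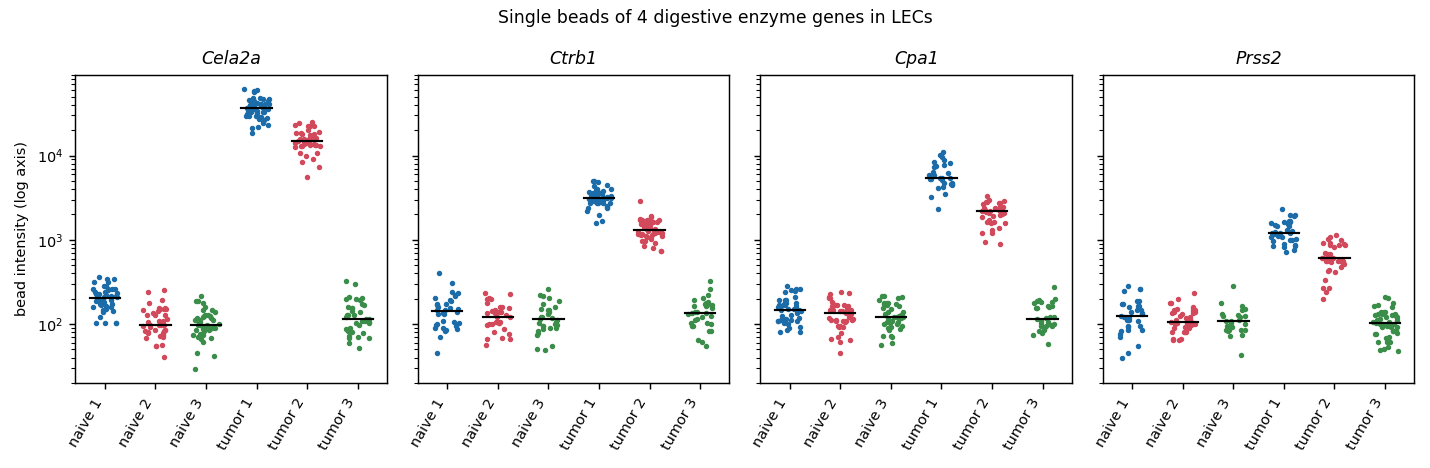
Intensity of single beads (y axis, log scale, both strips, local background subtracted) of the probes used for Cela2a, Ctrb1, Cpa1 and Prss2 in the 6 LEC replicates (x axis), with black bars at the medians. The beads of LEC tumor replicates 1 and 2 are shifted as a whole, while those of replicate 3 lie with the naive replicates.

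Probes of the same gene did not all show this pattern. The second probe of Cela1 stayed between 4.77 and 5.24 in all 24 replicates, and the second probe of Cpb1 between 5.06 and 5.74. Averaging such pairs lowers the levels of these 2 genes. The other 6 measured genes had a single probe.

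Outside LEC tumor replicates 1 and 2, Ctrl was the enzyme gene most often above background, in 20 of the 22 other replicates. In naive BECs it read 8.53, 8.30 and 8.46 in replicates 1, 2 and 3, and in tumor BECs 7.52, 7.97 and 7.20. All 6 normalized BEC values were above those of the 6 FRC replicates (6.27 to 7.03) and of the 6 DN replicates (5.15 to 6.71). The naive group means ordered BECs at 8.43 ± 0.12 (SD, n = 3), LECs at 7.45 ± 0.18, FRCs at 6.61 ± 0.37 and DN cells at 5.86 ± 0.76. Normalized BEC and LEC values did not overlap in naive mice, nor did LECs and FRCs, whereas DN replicate 2 (6.71) lay within the range of the FRCs. That naive DN replicate also stood apart in FRC markers. Pdpn (gp38) read 13.43 in it against 10.56 and 9.75 in naive DN replicates 1 and 3, and Ccl19 13.20 against 9.29 and 9.30. Their part in its Ctrl value was not tested. All 3 naive BEC values were above all 3 tumor BEC values, and the means differed by -0.87 (tumor minus naive) with an SE of 0.95. This SE comes from a fit over all 8 groups, in which the spread among the LEC tumor replicates enters for every enzyme gene. In FRCs Ctrl read 6.41, 6.38 and 7.03 in naive replicates and 6.27, 6.37 and 6.70 in tumor replicates, which overlap. Before normalization between strips LECs and FRCs overlapped. The median Ctrl bead had an intensity of 309, 330 and 284 in naive LEC replicates and of 269, 245 and 353 in naive FRC replicates. It was 327.5 in BEC tumor replicate 3, below FRC naive replicate 3, but 584.5, 522 and 557 in naive BECs. The order of LECs above FRCs thus rests on the normalization.

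Cela1 was above background in 18 of the 22 other replicates. It read 7.33, 6.72 and 7.32 in naive DN replicates 1, 2 and 3 and 6.04, 6.14 and 7.08 in tumor DN replicates. All 3 naive DN values exceeded the highest values of naive FRCs (6.13), BECs (6.19) and LECs (5.99). The normalized bead files gave the same order, with 7.97 to 8.34 in naive DN cells and at most 7.72 in the other naive replicates. Before normalization between strips it was seen only against LECs. The median bead had an intensity of 183, 283.5 and 215 in naive DN replicates 1, 2 and 3, and of 236, 231 and 227 in naive FRC replicates. It was 224, 227 and 143 in naive BEC replicates and 177, 167 and 130 in naive LEC replicates. The higher DN level of Cela1 against FRCs and BECs thus rests on the normalization. The strips of DN tumor replicate 1 disagreed for this gene, at 5.26 and 6.81, which was the widest gap between strips among all enzyme values.

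Cela2a was above background in 5 of the 22 other replicates. Its highest value there was 7.66 in BEC naive replicate 1, whose other 2 replicates were at 5.08 and 5.04, and LEC naive replicate 1 at 6.38 came next. The median bead of the Cela2a probe had an intensity of 414 in BEC naive replicate 1 and of 202 in LEC naive replicate 1. Clps (colipase, the cofactor of pancreatic lipase) was also above background in both replicates, at 6.32 and 6.03 as its only values above background outside the LEC tumor group.

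The other enzyme genes were at or near background outside LEC tumor replicates 1 and 2. Cpa1 passed the level in 4 of 22 replicates, at most 6.43 in DN tumor replicate 3, Ctrb1 in 2, Cpb1 in 1, and Cela3b and Prss2 in none. Cpa1 in naive DN replicates 1, 2 and 3 was at 6.07, 5.07 and 5.97, and in replicate 3 the strips read 6.63 and 5.31. No FRC or BEC replicate was above background for Cpa1, with 5.00 to 5.44 in FRCs and 5.17 to 5.44 in BECs. Before normalization between strips this contrast was not seen. The median Cpa1 bead had an intensity of 157, 139 and 151 in naive DN replicates 1, 2 and 3, and of 161.5, 150 and 180 in naive FRC replicates. It was 177 in both DN tumor replicate 3 and BEC tumor replicate 3. The higher DN values of Cpa1 thus rest on the normalization.

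Cela3b lay between 4.89 and 5.34 in FRCs, between 4.93 and 5.36 in BECs and between 5.18 and 5.45 in DN cells. Ctrb1 lay between 5.19 and 5.55 in FRCs, between 5.24 and 5.64 in BECs and between 4.88 and 5.29 in DN cells. Values this close to the background mode of 4.97 have no order. Cpb1 ranged from 4.98 to 5.49 in FRCs and from 4.90 to 5.44 in BECs, and its value above background was 5.79 in DN tumor replicate 1. Prss2 ranged from 4.83 to 5.20 in FRCs, from 4.65 to 5.24 in BECs and from 4.85 to 5.57 in DN cells. In FRCs, BECs and DN cells the tumor minus naive differences of the 8 genes had medians of 0.02, -0.16 and -0.10, and the widest single one was that of Cela2a in BECs, at -1.04 with an SE of 1.53. That difference follows BEC naive replicate 1.

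The rest of the acinar program was read from a list of 49 genes that did not include the enzymes above, of which 38 were named by a probe and 32 were above background in at least 1 replicate. In LEC tumor replicate 1, 30 of the 38 were above background, in replicate 2 28, and in replicate 3 13. Of all 19057 genes, 11293, 11365 and 11317 were above background in these 3 replicates. In the 22 replicates other than the first pair the count ran from 6 to 16, and LEC naive replicate 1 held the most.

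Acinar secreted proteins other than enzymes followed the enzyme genes. Of 11 such genes with a probe, 10 were above background in LEC tumor replicate 1, 9 in replicate 2 and 1 in replicate 3. Clps read 13.68, 12.27 and 5.05 in these 3 replicates, and Reg1 (a regenerating islet-derived secreted protein) 13.61, 11.39 and 4.87. Reg1 was above background also in FRCs, at up to 8.12. Zg16, a zymogen granule lectin, differed from these in being high in every LEC replicate: 11.18, 11.50 and 11.46 in naive LECs and 13.54, 11.86 and 10.62 in tumor LECs.

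Among the enzymes outside the 9, the trypsinogens Try10 and Try4 and the bile salt-stimulated lipase Cel were as restricted. Try10 read 13.10, 10.81 and 4.77 in LEC tumor replicates 1, 2 and 3 and at most 5.38 elsewhere. Try4 read 12.90, 10.72 and 4.85, with at most 5.19 elsewhere, and Cel 12.28, 10.00 and 4.91, with at most 5.66 elsewhere. Of these only Cel passed the background level outside the pair, in BEC tumor replicate 3.

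Some of the listed enzymes were above background in all 24 replicates, namely Dnase1, Klk1, Amy2a5 and Rnase1, and Pnliprp1 was in 20. Dnase1 ranged from 10.43 to 16.04, Klk1 (tissue kallikrein) from 10.46 to 15.53 and the probe used for Amy2a5 (pancreatic amylase) from 14.65 to 16.02 over the 24 replicates. Rnase1 (secreted ribonuclease) and Pnliprp1 (a lipase-related protein) reached their highest values in DN cells, at 14.33 and 14.09. In LEC tumor replicates 1, 2 and 3 Rnase1 read 13.19, 11.72 and 9.93 and Pnliprp1 13.49, 11.59 and 8.94, in the same order as the enzyme genes. These genes are known from salivary gland or other tissues too, or have close relatives there. A further probe of Amy2a5 read 10.88 in LEC tumor replicate 1, 5.81 in replicate 2 and 5.04 in replicate 3, so the probes of this gene did not agree.

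Transcription factors and the secretory machinery moved less. Ptf1a read 6.54 in LEC tumor replicate 1 and was below background in the 23 others. The brighter probe of Rbpjl was below background in all 24 replicates, and its second probe was above it in LEC tumor replicate 1 alone, at 6.85. Bhlha15 (Mist1, a factor of secretory cells) reached 14.23 in DN cells, and Nr5a2 (a nuclear receptor of pancreas and liver) was above 9 in all BEC and LEC replicates. Pdia2, a pancreatic protein disulfide isomerase, read 10.12, 8.06 and 5.49 in LEC tumor replicates 1 to 3, whereas the cholecystokinin receptor Cckar was below background everywhere.

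**Figure D4:**
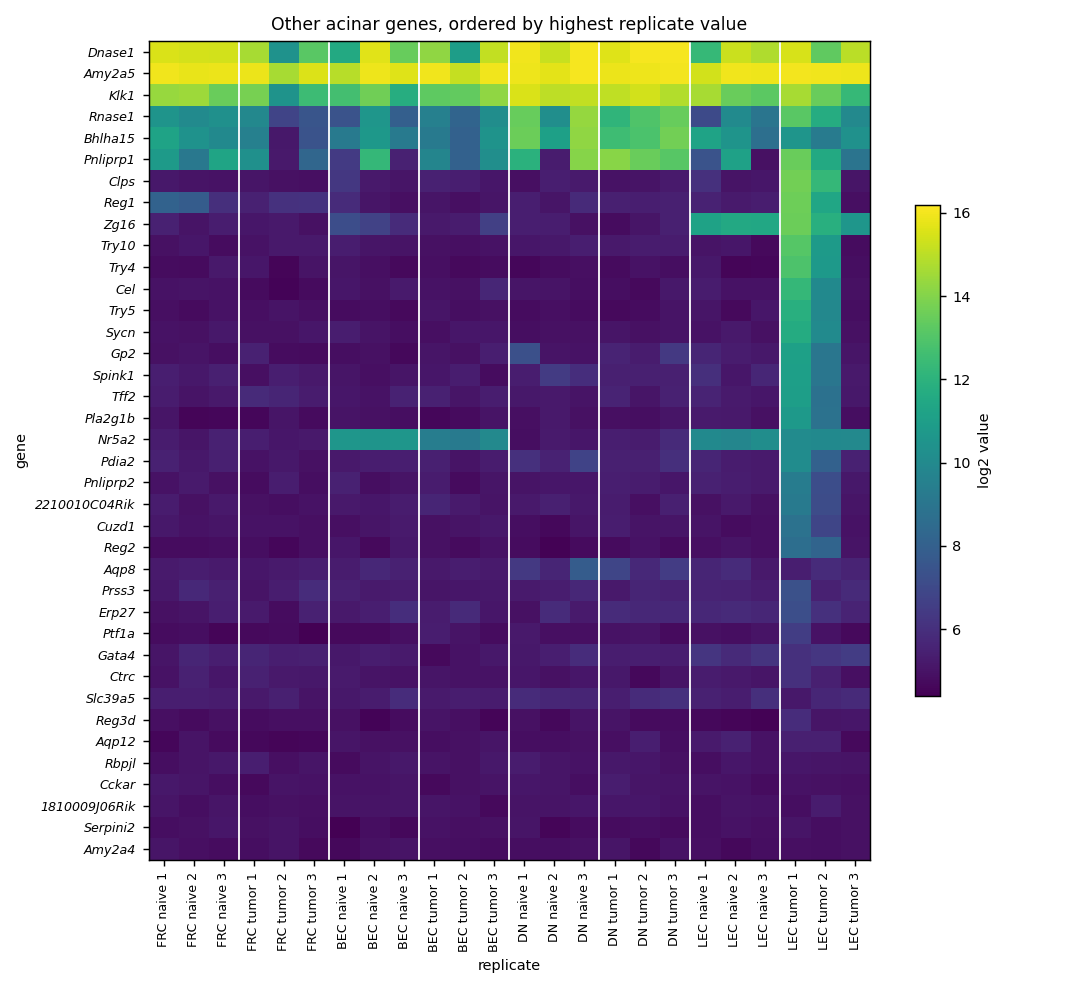
Log2 value (colour) of the 38 other acinar genes (rows, ordered by their highest value) in the 24 replicates (columns, white lines between groups). A block from Clps to Reg2 is bright mainly in LEC tumor replicates 1 and 2, with Zg16 in all LECs and Nr5a2 in BECs and LECs as exceptions, while the top rows are bright in all groups.

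The tests of these other acinar genes used limma on all genes kept, with Benjamini-Hochberg adjusted p under 0.05. Between tumor and naive LECs, 2 of 29 tested genes rose and none fell, where 0.765% of the 13331 genes tested rose and 0.135% fell. These were Reg2 (a difference of 2.38 with an SE of 0.54, adjusted p = 0.0363) and Try4 (4.71, SE 1.11, adjusted p = 0.0493). Of the 29 genes 12, Reg2 and Try4 among them, passed the filter on dim genes through the LEC tumor group alone, so that they had to lie higher in it and the count of 2 supports nothing about the list. With no such filter none of the 38 passed by limma, where 0.462% of 19057 genes rose. Of the 38, 19 were higher at an unadjusted limma p under 0.05, against 5.05% of all genes in the fit with the filter. The share of all genes without the filter is not given here. The 19 too rest on genes already seen to be high in LEC tumor replicates 1 and 2, so they support nothing about the list. The median difference over the 38 genes with a probe was 0.77. With the replicate number as a block, which pairs LEC samples, 0 of 29 passed by limma, where 0.593% of all genes rose. Of the 29, 18 were higher at an unadjusted limma p under 0.05, against 5.05% of all genes in the fit without the block. These 29 include the 12 kept through the LEC tumor group alone, so the 18 support nothing about the list. Without LEC tumor replicate 3, 16 of 31 genes passed, where 0.719% of all genes rose. This fit keeps the 2 replicates already seen to be high, so it shows only how far the count rests on replicate 3. The 9 genes not tested had no group mean above background.

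In the other cell types few listed genes differed with tumor. In FRCs Bhlha15 fell by 3.18 (SE 0.94, adjusted p = 0.0355) and none rose, where 4.04% of all genes fell and 6.29% rose. It read 11.25, 10.42 and 10.00 in naive FRC replicates 1, 2 and 3 and 9.54, 5.14 and 7.44 in the tumor ones. The call was lost in 7 of 36 alternatives, with an adjusted p of up to 0.245, and the difference was -2.07 without FRC tumor replicate 2. The salivary genes Prb1 (9.94, 6.09 and 8.10) and Lpo (9.70, 5.49 and 7.68) had the same order over FRC tumor replicates 1, 2 and 3, and their part in this difference was not tested. In BECs Nr5a2 fell by 1.04 (SE 0.18, adjusted p = 0.0023) and none rose, where 1.46% of all genes fell and 3.54% rose. In DN cells none of 29 passed by limma, where 4.71% of all genes rose and 2.54% fell. At an unadjusted p under 0.05, 1 of the 29 was higher in DN cells (11.6% of all genes) and none lower (11.5%). By the same measure none was higher in FRCs (13.2% of all genes) or BECs (10.5%), and 3 were lower in FRCs (12.1%) and 1 in BECs (9.33%).

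Among naive cell types, each against the mean of the other 3, the listed genes that differed were mostly those present in stroma. In LECs 3 of 29 were higher (15.7% of all genes), namely Zg16 by 5.68 (SE 0.41, adjusted p = 3.48e-09), Nr5a2 by 3.02 (adjusted p = 2.36e-11 by limma) and Gata4 by 0.69 (adjusted p = 0.00229 by limma), and none was lower (13.7%). In BECs Nr5a2 was higher by 3.79 (20.6% of all genes were higher) and Klk1 lower by 1.70 on the means 12.68 and 14.38 (23.4% were lower). In DN cells Rnase1, Bhlha15, Klk1 and Aqp8 (a water channel) were higher (25.2%) and Nr5a2 and Zg16 lower (24.5%). Gata4 and Aqp8 were dim and stood against means below background. Gata4 had a naive LEC mean of 6.05 against 5.37, and Aqp8 a naive DN mean of 6.61 against 5.45. In FRCs none was higher (16.8%), and Nr5a2 and Zg16 were lower (18.8%). At an unadjusted p under 0.05, 1 gene was lower in LECs (19% of all genes) and none higher in FRCs (19.6%) by limma. None of these shares of the 29 genes was above that of all genes.

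The genes most like the enzyme genes across the 24 replicates were again acinar. The mean of the 8 genes, each centred on its own mean, served as the profile, and the 15 genes with the highest Pearson r had r from 0.961 to 0.995. These points share libraries, and LEC tumor replicates 1 and 2 set most of the spread, so r is a description. Of these 15, 12 were on the acinar list: the zymogen granule protein Sycn, Try10, Try4, the pancreatic phospholipase Pla2g1b, Try5, Clps, Cel, Reg2, the trefoil factor Tff2, the trypsin inhibitor Spink1, the lipase-related Pnliprp2 and the zymogen granule protein Cuzd1. The other 3, Gm5771, Gm5409 and Gm10334, lie between Try10 and Prss2 on chromosome 6 in the RefSeq annotation (GRCm38.p6), and Gm5409, annotated as a pseudogene, carries Try10l as an older name. Their probes may read trypsinogen transcripts of their neighbours.

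Few genes stood above all other replicates in this pair. Over all 19057 genes, 27 were more than 1 log2 unit above every other replicate in both LEC tumor replicates 1 and 2, a rule chosen after seeing the data. These were all 8 measured enzyme genes, 16 of the other acinar genes and the 3 trypsin-like genes named above. No gene outside these groups met it. The rule leaves out any gene as high in another replicate. Rnase1, Pnliprp1, Zg16 and Adipoq also fell from LEC tumor replicate 1 to 2 to 3 and are not among the 27. The count is therefore no measure of how many genes differed among the LEC tumor replicates.

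Lists of other cell types were read in the same 3 LEC tumor replicates. Each count is to be read against all 19057 genes, of which 11293, 11365 and 11317 were above background in replicates 1, 2 and 3. Of 14 islet genes with a probe 2, 3 and 2 were above background in replicates 1, 2 and 3. Of the islet hormones, insulin (Ins2), glucagon (Gcg) and somatostatin (Sst) were below background in all 6 LEC replicates. Pancreatic polypeptide (Ppy) was above it in all 6, at 6.02, 6.24 and 6.12 in naive and 5.83, 5.64 and 5.93 in tumor LECs. Nkx6-1 read 8.69 to 10.10 in all of them. Duct and general epithelial genes had medians of 9.35, 8.23 and 8.05 over 13 genes, with 12, 12 and 11 above background. The highest of these, Cldn4, Krt8 and Sox9, had their highest values in DN naive replicate 2.

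Salivary gland genes were high in every group. Of 28 such genes 25, 24 and 23 were above background in LEC tumor replicates 1, 2 and 3, with medians of 12.41, 10.70 and 10.86, and Bpifa2 (parotid secretory protein) was at 15.54 or above in all 24 replicates. The log2 of the summed level ran from 18.19 to 19.08 in naive LECs and from 18.53 to 19.07 in tumor LECs. These sums are set by probes near the top of the range, such as Bpifa2 and Dcpp2, and show little of the dimmer genes. LEC tumor replicate 3 had the lowest LEC values of Klk1b26 (12.19), Klk1b27 (10.87) and Klk1b5 (11.92), kallikreins of the salivary gland, which read 14.74, 14.73 and 14.54 in LEC tumor replicate 1 and 13.70, 12.26 and 13.38 in replicate 2. Prb1, at 10.53, 9.01 and 10.24 in LEC tumor replicates 1, 2 and 3, did not follow that order. Whether tissue beside the nodes had a part in either group of genes was not tested.

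**Figure D5:**
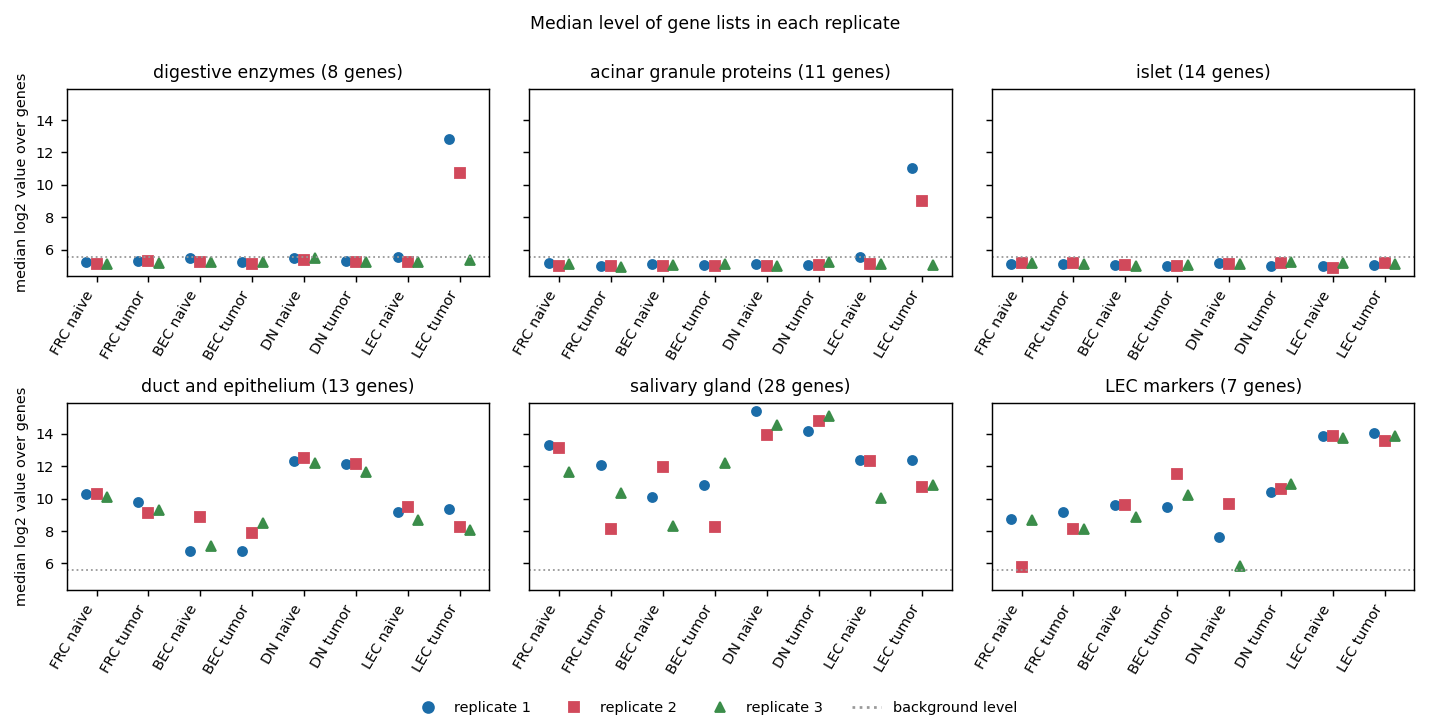
Median log2 value (y axis) over the genes of 6 lists in each replicate (points), by group (x axis), with the background level dotted. The digestive enzymes and acinar granule proteins are raised in LEC tumor replicates 1 and 2, while the islet medians stay below background. Salivary gland medians were 12.41, 10.70 and 10.86 and duct medians 9.35, 8.23 and 8.05 in LEC tumor replicates 1, 2 and 3.

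LEC markers had medians of 14.03, 13.54 and 13.89 in replicates 1, 2 and 3. The counts that follow again stand beside 11293, 11365 and 11317 of all 19057 genes above background in these replicates. A count near that share says nothing particular about a cell type. Of 13 gut epithelium genes 5, 5 and 4 were above background, and of 12 genes tied to the display of tissue antigens in stroma 3 in each. Aire, the autoimmune regulator, was below background in all 3 LEC tumor replicates. Leukocyte and B cell genes counted 7, 7 and 8 of 10, hepatocyte genes 6, 7 and 5 of 11, keratinocyte genes 5, 6 and 6 of 11, skeletal muscle genes 2, 2 and 3 of 10, and adipocyte genes 3, 4 and 1 of 7. Adipoq (adiponectin) read 8.95, 7.03 and 5.44, in the same order as the enzyme genes, and the part of fat in their levels was not tested. Schwann cell genes counted 7, 4 and 4 of 9, mast cell genes 1 of 6 in each, red cell genes 2, 3 and 3 of 3, FRC genes 8 of 8 in each, endothelial genes 7 of 8 in each and pericyte genes 6, 7 and 6 of 7. Within these last lists LEC tumor replicate 2 stood apart from tumor replicates 1 and 3. Flt1 (a VEGF receptor) read 11.06, 14.08 and 11.27 in LEC tumor replicates 1, 2 and 3, and Mcam 9.96, 12.64 and 10.31. Rgs5, a pericyte gene, read 6.89, 9.54 and 7.71, Pdgfrb 6.33, 8.28 and 6.33, and Chst4, a gene of high endothelial venules, 6.31, 8.63 and 4.95. In LEC naive replicates 1, 2 and 3 Flt1 read 12.14, 13.74 and 12.13, and Mcam 9.82, 10.01 and 10.01. There Rgs5 read 8.77, 9.17 and 8.22, Pdgfrb 6.88, 7.33 and 5.87, and Chst4 5.65, 6.10 and 6.12. The part of these genes in the enzyme levels of LEC tumor replicate 2 was not tested.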

How the data were processed

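The authors deposited log2 values of 45281 probes on 48 strips and, per strip, bead intensities. How the values were corrected and normalized is not given in the sources used here. The deposited log2 values (122 empty) were quantile normalized and the strips of a replicate averaged. Background was the mode (4.97) plus 3 robust SDs (0.20 each), 5.57. Of the probes, 34885 had 1 gene symbol in the platform annotation, 18 several and 10378 none. The brightest probe stood for a gene, and 13331 of 19057 genes with a group mean above background were tested with limma 3.58.1 (R 4.3.3) on 8 group means. On simulated tumor and naive LECs the test was tried with known changes, and the outcome is not given here. A simulated gene had the same spread in every replicate. The trial therefore does not bear on the LEC tumor group here, whose replicates did not agree. The members and lists were chosen with earlier results of these data known. Named genes were all members, up to 12 other acinar genes and up to 3 genes per list with the highest value, and the 15 most alike by r. Further genes are named for their role or for having passed a test, after their values were seen. The deposited bead intensity, after removal of beads beyond 3 scaled MADs, was averaged per code, linked to probes by profile and used as an alternative. Same-numbered naive and tumor replicates deviated together in LECs (r = 0.203, 0.225 and 0.145) but not in every pair of the other cell types, so the block is read for LECs. Replicates pool sorts, and the p-values measure the spread between these pools. Number of replicates limits precision. Alternatives were the normalization, strips, probes, bead files, filters, samples in the fit, block, array weights and leaving out replicates.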

Additional observations from a re-analysis of the deposited data

Results flagged for a closer look

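A probe without a gene name, ILMN_1224275, followed the enzyme genes. Its log2 value was 13.94 in LEC tumor replicate 1, 11.98 in replicate 2 and 4.68 in replicate 3, with at most 5.74 in the other replicates. It was singled out among 10396 probes without a single gene symbol (10378 with none and 18 with several) as the only one more than 1 log2 unit above every other replicate in both. With 3 replicates a group, no search for single outlying samples was made.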

How the results depend on the processing

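Over the 8 measured enzyme genes, the median tumor minus naive difference in LECs was 4.22 and ran from 2.66 to 6.27 when single replicates were left out. It turned to -0.043 with LEC tumor replicates 1 and 2 both left out. In FRCs, BECs and DN cells it ran from -0.01 to 0.08, from -0.25 to -0.10 and from -0.16 to -0.076, all on the log2 scale. All other alternatives kept the LEC median positive.

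The count of other acinar genes higher in tumor LECs was 2. It was 1 with the values as deposited, either strip alone, the mean of all probes, bead files with normexp or array weights, and 0 with bead files alone, no filter, only the groups of the contrast, the replicate block, or LEC tumor replicates 1 and 2 both left out. Leaving out single replicates gave 0 to 16, the 16 without LEC tumor replicate 3. The cause was not tested. Reg2 kept a positive difference of 1.33 to 3.51 and Try4 of 3.00 to 7.03.

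Lower in naive BECs were 1 gene in the report and 2 with deposited values, the second strip, the mean of probes, either bead setting, only the groups of the contrast or LEC tumor replicates 1 and 2 left out, and 5 with array weights (0 to 4 without single replicates). Higher in naive DN cells were 4, against 7 with those replicates left out (2 to 5). Higher in naive FRCs were 0, against 1 with array weights, only the groups of the contrast or those replicates left out (0 to 1). Array weights, which stopped short of convergence, gave 1 lower in naive LECs (0 to 1 without single replicates), 3 lower with tumor in BECs, 1 in DN cells and 3 in FRCs. Only the groups of the contrast gave 0 lower in BECs and FRCs, bead files 0 in FRCs, and LEC tumor replicates 1 and 2 left out 2 in FRCs (0 to 2 without single replicates). The replicate block changed no other count by over 1.5 times. Signals at background carry no order, and probes near 16 on the log2 scale are close to the top of the range.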
